A study of Mus musculus with 3 samples.

Results

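Neurogenic progenitors are retinal progenitors that have begun to make neurons. In the library of cultured mouse retina they were the cells to which the depositors gave that name, 682 of 5607 cells, in a series of 14611 cells from 3 libraries. All cells came from wild type CD1 retinas that were dissected on embryonic day 14 and kept on membranes for 6 days, and GEO gives their age as postnatal day 0. A small molecule agonist of the somatostatin receptor Sstr2 was in the medium at 0, 5, 50 or 500 nM, with 2 multiplexed samples at each dose. These samples are called explants here and numbered 1 and 2 within a dose. Culture was common to the 4 groups, so the 0 nM explants are the control for the agonist and not for explantation. The number of retinas in a sample is not stated, and the labels do not say that the explants of a dose came from separate animals. The p-values therefore measure the spread between these samples, which may be technical.

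A retinal progenitor either divides to give more progenitors or leaves the cell cycle as a neuron. Cells close to that step switch on proneural factors of the basic helix-loop-helix (bHLH) family such as Neurog2, Atoh7 and Olig2, and present Notch ligands of the Delta family to their neighbours. In the neighbours Notch activates Hes genes, which repress proneural genes and keep the cells as progenitors. Sstr2 is a receptor coupled to inhibitory G proteins, and its ligand somatostatin is made in the developing retina by ganglion cells. The study asked whether activating this receptor alters which cells the progenitors give rise to.

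At 0 nM the explants held 111 and 65 neurogenic progenitors, at 5 nM 38 and 137, at 50 nM 46 and 95, and at 500 nM 85 and 105. Their summed counts of unique molecular identifiers (UMIs, each standing for 1 captured transcript) were 504953 and 290541 at 0 nM, 181563 and 641331 at 5 nM, 207818 and 426818 at 50 nM, and 382472 and 451624 at 500 nM. Explant 1 at 5 nM was thus the shallowest and explant 2 at 5 nM the deepest. The median neurogenic progenitor held 4526.5 UMIs, against 4548 in primary progenitors, 2642.5 in photoreceptors, 4742.5 in amacrine cells and 3079.5 in cells labelled RGCs (retinal ganglion cells). Mitochondrially encoded transcripts made up 5.40% to 6.50% of the UMIs of neurogenic progenitors per explant.

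The explants differed in sex. Xist, the noncoding RNA of the inactive X chromosome of female cells, had a UMI in 63.1% and 55.4% of neurogenic progenitors at 0 nM, 100% and 65.0% at 5 nM, 54.3% and 67.4% at 50 nM, and 100% in both explants at 500 nM. UMIs of 4 Y-linked genes were found in 22.5% to 32.6% of the cells of the 5 mixed explants and in 0%, 0% and 2.86% of the cells of the other 3. The mixed explants thus held cells of both sexes, and so of more than 1 animal. At 5 nM the share was 0% in explant 1 and 28.5% in explant 2, so explant 2 held male cells that were not seen in explant 1. The explants at 0 and 50 nM were all mixed, and both at 500 nM were nearly all female, so the sex of the cells and the highest dose cannot be told apart in a plain comparison of 500 with 0 nM. Where Xist-positive cells alone are named below, cells with a Y-linked UMI were left out too. The Xist share used as a covariate is that of the other cells of an explant. It was 98.6% and 61.9% at 5 nM, but 58.2% and 62.0% at 0 nM, 58.2% and 57.8% at 50 nM, and 99.2% and 98.1% at 500 nM. Single-dose values with this covariate therefore rest mostly on the difference between the 2 explants at 5 nM, 1 of them the shallowest. Of the explant cell barcodes 9 also occurred in the P0 library and 4 in the P14 library, and 4 of these belonged to neurogenic progenitors.

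Of the 5 genes taken here as markers of neurogenic progenitors, 4 were highest in these cells in every explant. All values below are levels in CPM, a gene's UMIs scaled to the same total in every sum, and since the cell types were named from clusters of the same cells, differences between types are described and not tested. Atoh7, a bHLH factor needed for ganglion cells, had a lowest, median and highest level over the 8 explants of 1143, 1436 and 1839.6 CPM, against at most 286 CPM in any explant of any other type. Hes6, an atypical Hes factor that works against Hes1, lay at 1471, 1681 and 1965 CPM, above the 611 to 790 CPM of primary progenitors. Dll3, a Delta protein that acts within the cell that makes it, lay at 221, 278 and 364 CPM, and the other types did not pass 76.2 CPM. Every neurogenic value of these 3 genes exceeded every value of the other types.

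Olig2, a bHLH factor of progenitors near their last division, lay at 93.6, 101 and 142 CPM, against at most 31.5 CPM in primary progenitors, photoreceptors and amacrine cells. Its single high value elsewhere, 77.4 CPM in the RGCs of 1 explant, stood below the lowest neurogenic value. Neurog2 was the exception. Its 152, 196 and 223 CPM exceeded the 36.7 to 51.5 CPM of primary progenitors. Amacrine cells, at 102 to 186 CPM, were below neurogenic progenitors within each explant. But cells labelled RGCs ranged from 52.8 to 601 CPM, and neurogenic progenitors were highest in 2 of 8 explants. The RGC values rest on 166 UMIs in all, from 5 to 61 cells per explant. Mitochondrially encoded genes summed to 114780 to 205311 CPM in RGCs, against 53976 to 64983 CPM in neurogenic progenitors. Over pooled cells 4 of the 5 markers were highest in neurogenic progenitors, and 5 of 5 were when the mean of the deposited depth-corrected values per cell was used instead. The receptor itself, Sstr2, lay at 60.9, 113 and 173 CPM and did not pass 22.1 CPM in primary progenitors, photoreceptors or amacrine cells.

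**Figure D1:**
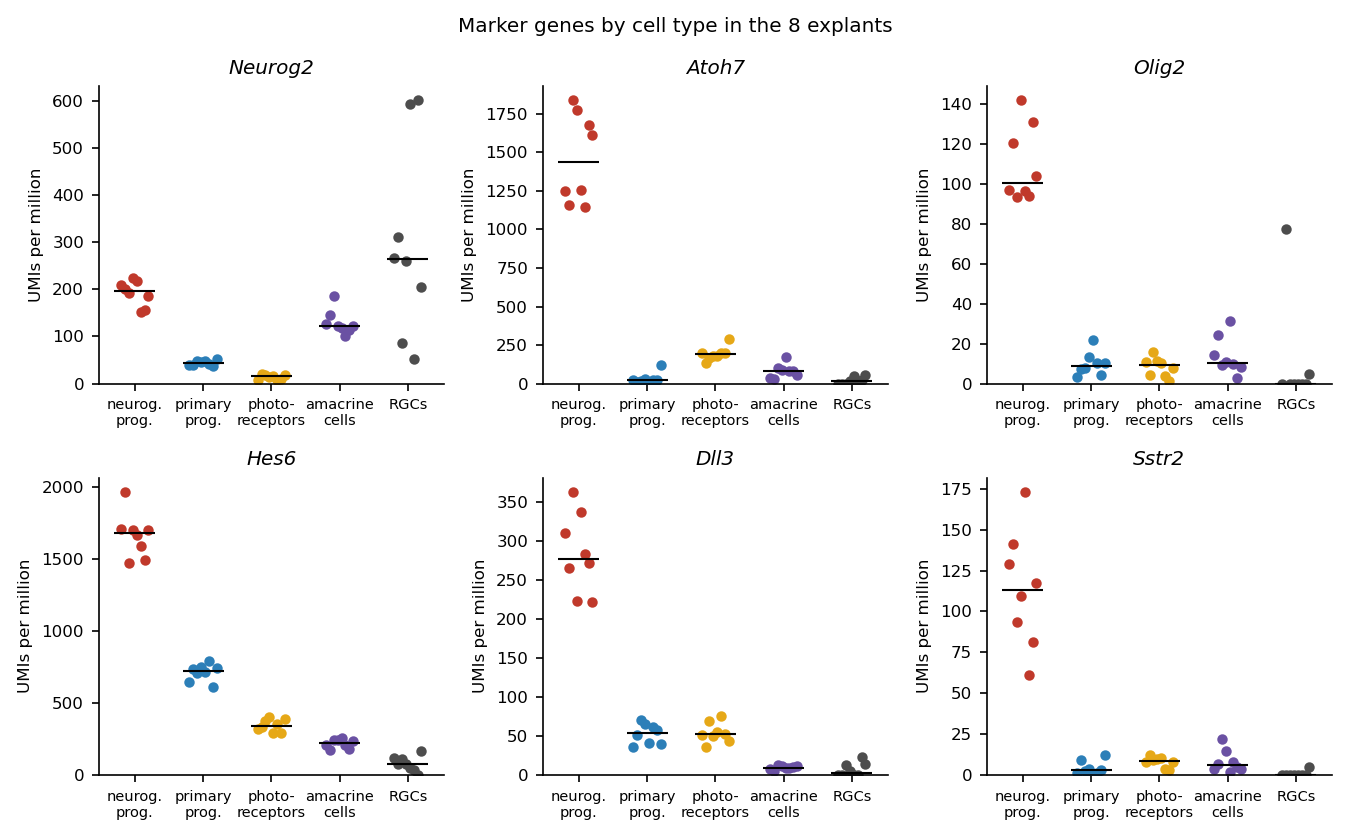
Level in CPM (vertical axes, starting at 0) of the 5 marker genes and Sstr2 in each of the 5 explant cell types. Each point is 1 of the 8 explants, in order of dose from left to right, and the black line is their median. Neurogenic progenitors stand above the other types for 5 of the 6 genes, and for Neurog2 the RGCs, with 200 cells in all, spread from 52.8 to 601 CPM.

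Of 1694 genes with at least 100 CPM in neurogenic progenitors, 81 were highest in them in all 8 explants. The 15 that stood furthest above the next type, by the median over explants of the log2 difference, all did so in 8 of 8 explants. Pkib, an inhibitor of cAMP-dependent protein kinase, led with a log2 difference of 3.41 at a pooled level of 365 CPM. Sstr2 followed at 3.29, then Mybl1, a transcription factor of the Myb family, at 3.12 and 667 CPM, Atoh7 at 2.94, Olig2 at 2.88 and Dll3 at 2.32. Further down came Nxn (a redoxin, 2.29), Rgs16 (a regulator of G protein signaling, 1.79), Gadd45g (a growth arrest gene, 1.65), Mfng (a glycosyltransferase that modifies Notch, 1.24) and Hes6 (1.21), with 3110035E14Rik, Shf, Rrs1 and Glrx among them at 1.61 to 2.26.

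Single further genes, named after their values were seen, were also highest in neurogenic progenitors. The Notch ligands Dll1 and Dll4 were at 137 and 51.2 CPM over pooled neurogenic progenitors, against 63.7 and 4.92 CPM in primary progenitors, the next type. Btg2, an antiproliferative gene, was at 982 CPM against 718 CPM in photoreceptors, and Gadd45a at 420.1 CPM against 199 CPM in amacrine cells. Penk, which encodes the enkephalin precursor, was at 33.7 CPM against 3.72 CPM in primary progenitors. Neurogenic progenitors were the highest type in all 8 explants for each of these 5 genes.

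Early genes of the photoreceptor lineage, also named after their values were seen, were below their level in photoreceptors. Otx2, which starts the photoreceptor programme, was at 694 CPM, between 90.7 CPM in primary progenitors and 1470.1 CPM in photoreceptors. Neurod1 (727 against 1982 CPM in photoreceptors), Neurod4 (528 against 658 CPM), the zinc finger factor Insm1 (380.3 against 671 CPM) and the photoreceptor repressor Prdm1 (127 against 312 CPM) were likewise below photoreceptors, and in none of these 5 genes were neurogenic progenitors highest in any explant. Later photoreceptor genes were low, with the rod factor Nrl at 8.42 CPM against 298 CPM and recoverin (Rcvrn) at 1.94 CPM against 145 CPM in photoreceptors. Over whole lists the median summed level of photoreceptor precursor markers was 1284 CPM against 8129.6 CPM in photoreceptors, of amacrine markers 433 against 4366 CPM in amacrine cells, and of ganglion cell markers 424 against 8309 CPM in RGCs. Of the primary progenitor genes, the Notch target Hes1 was at 25.9 against 225 CPM and the cell cycle regulator Ccnd1 (cyclin D1) at 598 against 2326 CPM. Hes5 differed from them, with 923 to 1889 CPM in neurogenic progenitors and 1210.3 to 2166 CPM in primary progenitors, and was highest in neurogenic progenitors in 3 of 8 explants.

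Single cells were compared after each was thinned to 2000 UMIs, which kept 680 of the 682 neurogenic progenitors. Hes6 had a UMI in 87.6% of them, Atoh7 in 59.1%, Dll3 in 39.1%, Neurog2 in 26.6%, Olig2 in 19.6% and Sstr2 in 15.9%. The unthinned shares were 96.3%, 68.3%, 62.0%, 42.2%, 31.8% and 27.3%. In amacrine cells the thinned shares of Dll3 and Sstr2 were 1.47% and 1.18%. The lens gene Cryaa, not a gene of retinal progenitors, had a UMI in 4.12% of thinned neurogenic progenitors and in 3.59% to 6.25% of each other type, and Pou4f2, a defining ganglion cell factor, in 0.588% against 12.3% of RGCs. At least 2 of the 5 markers were found in 545 neurogenic progenitors (80.1%), against 16.9% of primary progenitors, 16.5% of photoreceptors, 9.65% of amacrine cells and 7.18% of RGCs. No marker was found in 18 neurogenic progenitors (2.65%), and all 5 were in 6.

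The cells were not uniform. Top2a or Mki67, which mark dividing cells, had a UMI in 24.1% of the 402 cells with Atoh7 and in 38.5% of the 278 without it. Among cells with Neurog2 the share was 43.1% (78 of 181) against 25.3% without, with Olig2 43.6% (58 of 133) against 26.7%, and with Sstr2 43.5% (47 of 108) against 27.4%. Cells with Otx2 went the other way, at 23.3% against 42.0%, and also held Hes5 less often, in 50.1% against 70.8%. Top2a or Mki67 had a UMI in 31.7% of cells with Hes6 against 17.9% without, with Hes5 in 33.5% against 25.3%, and with Dll3 in 27.8% against 31.4%. Within the class, then, UMIs of dividing-cell genes were found more often beside Neurog2, Olig2, Sstr2, Hes6 and Hes5. They were found less often beside Atoh7 and Otx2, and differed little with Dll3. The differences were not tested. These are shares of cells pooled over explants, given as a description.

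The share of neurogenic progenitors among all cells of an explant was 10.3% and 13.5% at 0 nM (mean 11.9% ± 2.25 SD, n = 2), 11.9% and 14.3% at 5 nM (13.1% ± 1.65), 11.1% and 12.03% at 50 nM (11.6% ± 0.646), and 12.5% and 11.8% at 500 nM (12.1% ± 0.452). The doses overlapped, and the share had no relation to log10 of the dose in nM plus 1 that could be told from 0 (Pearson's r = −0.09, exact permutation p = 0.819, also 0.819 after adjustment over the 2 shares tested, and Spearman's rho = −0.05, exact permutation p = 0.946, adjusted 0.946). Without the 2 explants at 500 nM, r was −0.13 (exact permutation p = 0.778).

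As a share of progenitors, primary and neurogenic together, neurogenic cells made up 36.3% and 34.8% at 0 nM (35.5% ± 1.07 SD, n = 2), 31.4% and 27.7% at 5 nM (29.5% ± 2.64), 26.6% and 28.9% at 50 nM (27.7% ± 1.62), and 29.5% and 22.2% at 500 nM (25.8% ± 5.21). Both explants at 0 nM were above all 6 treated explants, which overlapped among doses. The share decreased with log10 of dose plus 1 over the 8 explants (r = −0.80, exact permutation p = 0.0171, adjusted 0.0341), while the rank correlation did not pass the threshold (rho = −0.73, exact permutation p = 0.0548, adjusted 0.110). Its unadjusted exact permutation p was 0.032 without explant 2 at 5 nM, 0.038 without explant 2 at 50 nM and 0.013 without explant 1 at 500 nM. Without the 2 explants at 500 nM, r was −0.87 (exact permutation p = 0.0444, n = 6) and rho −0.84 (exact permutation p = 0.0667). The call on r was lost without explant 1 at 0 nM (r = −0.73, exact permutation p = 0.0587), without explant 2 at 500 nM (r = −0.71, exact permutation p = 0.0794) and in Xist-positive cells alone (r = −0.70, exact permutation p = 0.0540). Primary progenitors were 18.1% and 25.4% of all cells at 0 nM, 26.1% and 37.3% at 5 nM, 30.7% and 29.6% at 50 nM, and 29.8% and 41.6% at 500 nM, so that all 6 treated explants were above both at 0 nM.

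**Figure D2:**
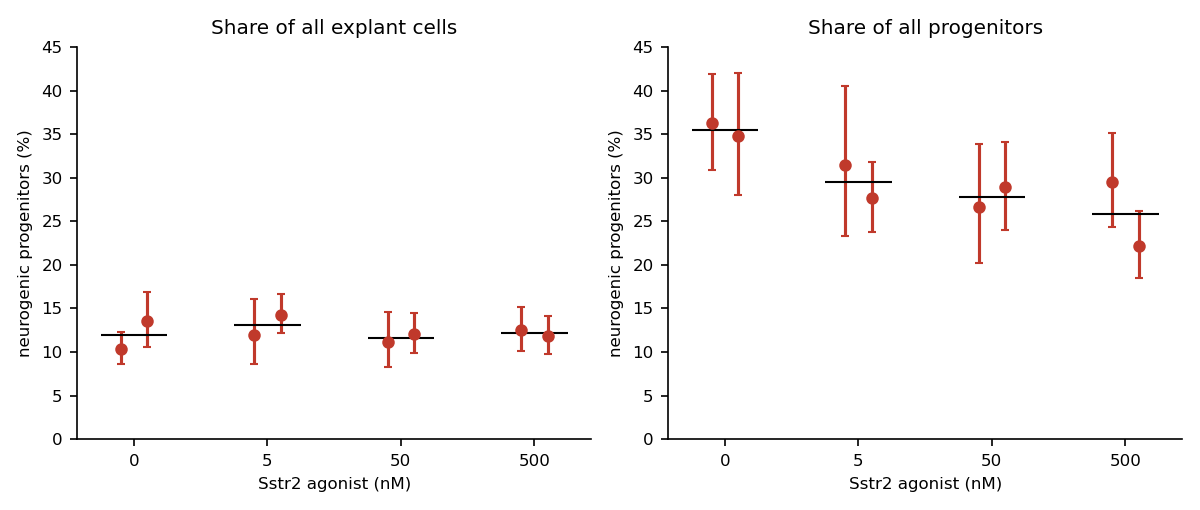
Neurogenic progenitors in percent of all explant cells (left) and of all progenitors (right), vertical axes from 0, against the dose of agonist in nM on an axis of equal steps. Points are explants with exact 95% binomial intervals, which cover counting error only, and black lines are means of 2 explants. On the left the doses overlap, and on the right both explants at 0 nM, at 36.3% and 34.8%, lie above the 6 treated explants.

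Few genes passed the test within the cells. Counts summed per explant were fitted by edgeR's quasi-likelihood test with all 8 explants, over 6072 of 18823 genes, and called at a Benjamini-Hochberg adjusted p under 0.05. At 5 nM 5 genes were called against 0 nM (0.0823% of those tested), at 50 nM 2 (0.0329%), at 500 nM 6 (0.0988%), and 4 (0.0659%) had a trend over log10 of dose plus 1. The 3 doses are compared with the same 2 explants at 0 nM, so their results are not independent. An unadjusted p under 0.05 was met at 5 nM by 2.95% of genes with a higher and 3.51% with a lower level than at 0 nM, at 50 nM by 2.59% and 3.31%, at 500 nM by 2.37% and 2.87%, and for the trend by 1.88% and 2.6%. These shares are the background for the gene groups below. With 2 explants a dose, explants that do not overlap are common: at 5 nM both lay above both at 0 nM in 17.5% of genes and below in 18.6%, at 50 nM in 17.6% and 18.3%, and at 500 nM in 18.7% and 16.9%. With DESeq2 in place of edgeR no gene was called at any single dose, with 51, 42 and 17 genes at an unadjusted p under 0.05, and 2 had a trend.

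Of the 4 genes with a called trend the steepest was Cdkn1c, the Cdk inhibitor p57Kip2, which stops progenitors from dividing (chr7:143458339-143461050, minus strand, GRCm38). Its level was 69.3 and 65.4 CPM at 0 nM, 22.0 and 62.4 CPM at 5 nM, 9.62 and 9.37 CPM at 50 nM, with 5.23 and 6.64 CPM at 500 nM. All 4 explants at 50 and 500 nM lay below all 4 at 0 and 5 nM. Cdkn1c fell by 2.80 on the log2 scale at 50 nM (SE 0.512, edgeR adjusted p = 0.0154) and by 3.44 at 500 nM (SE 0.517, adjusted p = 0.000102), and by 1.31 for each unit of log10 dose plus 1 (SE 0.181, adjusted p = 3.48e-05). At 5 nM the log2 difference was −0.37 (edgeR adjusted p = 0.911).

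The counts behind Cdkn1c are small, at 35 and 19 UMIs at 0 nM, 4 and 40 at 5 nM, 2 and 4 at 50 nM, and 2 and 3 at 500 nM. In explant 2 at 5 nM 27 of the 40 UMIs were in 1 cell, and in explant 1 at 0 nM 15 of the 35. The unthinned share of cells with a Cdkn1c UMI, which rests on 1 to 11 cells per explant, was 9.91% and 15.4% at 0 nM, 7.89% and 7.30% at 5 nM, 4.35% and 4.21% at 50 nM, and 1.18% and 2.86% at 500 nM. After thinning it was 7.21% and 10.8% at 0 nM, 5.26% and 2.19% at 5 nM, 4.35% and 1.05% at 50 nM, with 1.18% and 0.971% at 500 nM, so that 50 nM overlapped with 5 and 500 nM and both explants at 0 nM were above all others. The trend was also called by DESeq2 (adjusted p = 0.00039), with the Xist share as a covariate (−1.21, edgeR adjusted p = 0.029) and without any single explant. It did not pass within the 5 mixed explants (−1.21, edgeR adjusted p = 0.23) or within the 3 nearly all female ones (−0.95, adjusted p = 0.88). The call at 500 nM was lost with DESeq2 (adjusted p = 0.29), in Xist-positive cells alone (edgeR adjusted p = 0.11) and with the covariate (−1.87, adjusted p = 0.96), and that at 50 nM without any 1 of its 4 explants (−2.83 to −2.74, adjusted p = 0.053 to 0.60), with limma on SCT counts (adjusted p = 0.42) and in Xist-positive cells alone (−3.37, edgeR adjusted p = 0.70).

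Hist1h1b, a linker histone made in S phase (chr13:21779883-21780625, minus strand), was at 1095 and 1215 CPM at 0 nM, 501 and 968 CPM at 5 nM, 755 and 729 CPM at 50 nM, with 497 and 443 CPM at 500 nM. Both explants at 0 nM were above all others and both at 500 nM below all others. It fell by 1.30 on the log2 scale at 500 nM (SE 0.147, edgeR adjusted p = 2.72e-07) and by 0.45 per unit of log10 dose plus 1 (SE 0.0562, adjusted p = 8.62e-06). At 5 and 50 nM, where it was not called, the log2 differences were −0.52 and −0.63 (edgeR adjusted p = 0.175 and 0.177). The difference at 5 nM ran from −1.19 to −0.24 without single explants. Both calls held without any single explant, and the trend held within the 5 mixed explants (−0.37, edgeR adjusted p = 0.0078). Within the 3 nearly all female explants, 1 at 5 and 2 at 500 nM, it was −0.05 (edgeR adjusted p = 0.96). With the Xist share as a covariate the trend was −0.28 (adjusted p = 0.059), with limma on SCT counts −0.40 (adjusted p = 0.086), and the difference at 500 nM −0.35 (adjusted p = 0.96). DESeq2 did not call the difference at 500 nM (adjusted p = 0.29).

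Other linker histones had unadjusted p-values under 0.05 at 500 nM without passing the adjusted threshold. Hist1h1e was at 1065 and 1187 CPM at 0 nM and at 897 and 804 CPM at 500 nM (log2 difference −0.41, SE 0.117, edgeR adjusted p = 0.607). Hist1h1c was at 196 and 182 CPM against 123 and 113 CPM (−0.71, SE 0.207, adjusted p = 0.759), and Hist1h1a at 29.7 and 110.1 CPM against 18.3 and 19.9 CPM (−1.67, SE 0.473, adjusted p = 0.607). In these 3 genes the 2 doses did not overlap, as in 16.9% of all genes in this direction. Hist1h1a was −2.51 without explant 1 and −0.63 without explant 2 at 0 nM. Of 9 clustered histone genes tested, 4 had an unadjusted p under 0.05 and a lower level at 500 nM and none a higher one, with a median log2 difference of −0.71 beside −0.0027 over all genes. With the Xist share as a covariate none had such a p with a lower level and 1 with a higher one, with a median of −0.35. The median was −1.22 without explant 1 at 0 nM.

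Eif2s1, the alpha subunit of translation initiation factor eIF2 (chr12:78861819-78887010, plus strand), was at 198 and 186 CPM at 0 nM, 132 and 145 CPM at 5 nM, 111 and 119 CPM at 50 nM, with 112 and 86.4 CPM at 500 nM. All treated explants were below both at 0 nM. It fell by 0.98 at 500 nM (SE 0.209, edgeR adjusted p = 0.0304) and by 0.36 per unit of log10 dose plus 1 (SE 0.0738, adjusted p = 0.0273), and the trend did not pass without explant 1 or 2 at 0 nM, explant 2 at 50 nM or explant 2 at 500 nM (adjusted p = 0.57, 0.23, 0.065 and 0.47). The call at 500 nM was lost without any 1 of its 4 explants (edgeR adjusted p = 0.088 to 0.69), in Xist-positive cells alone (−1.15, adjusted p = 0.11) and with the Xist share as a covariate (−0.83, adjusted p = 0.96). The trend did not pass with DESeq2 (adjusted p = 0.45), with limma on SCT counts (adjusted p = 0.32), with the covariate (−0.36, edgeR adjusted p = 0.86), within the mixed explants (−0.43, adjusted p = 0.54) or within the nearly all female ones (−0.22, adjusted p = 0.89).

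Xist and the Y-linked Eif2s3y, genes of sex, were also called at 500 nM. Xist was at 1442 and 947 CPM at 0 nM and at 2743 and 2438 CPM at 500 nM, a rise of 1.08 (SE 0.134, edgeR adjusted p = 1.84e-06), with a trend of 0.33 (SE 0.0648, adjusted p = 0.0233). In Xist-positive cells alone the rise was 0.28 (edgeR adjusted p = 0.93). Eif2s3y had 23 and 11 UMIs at 0 nM and 0 and 2 at 500 nM (edgeR adjusted p = 0.0161).

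**Figure D3:**
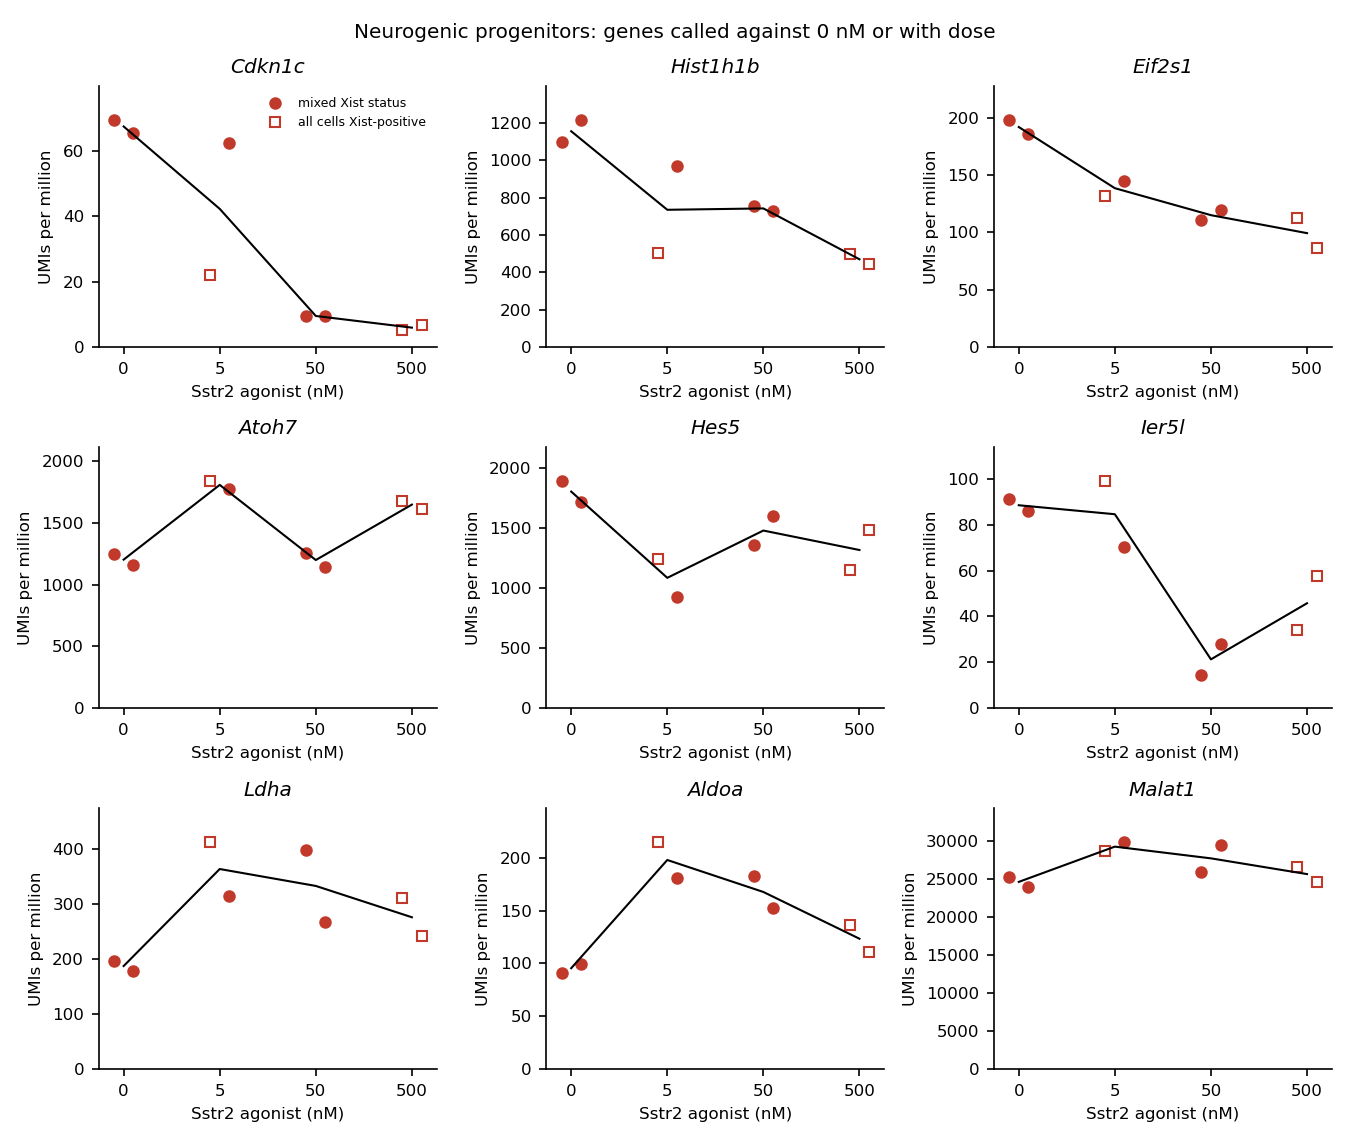
Level in CPM (vertical axes from 0) of 9 genes called in neurogenic progenitors against the dose of agonist in nM on an axis of equal steps. Filled circles are explants with cells of both Xist states, open squares those in which all neurogenic progenitors had a Xist UMI, and lines join the means of 2 explants. Cdkn1c goes from 69.3 and 65.4 CPM to 5.23 and 6.64 CPM, whereas Atoh7 is high at 5 and 500 nM and near its untreated level at 50 nM.

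Atoh7 and Hes5 moved in opposite directions at 5 nM. Their promoters are shown because both genes sit at the switch between Notch signaling and neurogenesis. In the windows from 250 bases before to 50 after the RefSeq start (GRCm38.p6), capitals mark 2 motifs searched on both strands, which share no base here. They are CANNTG, the E-box to which bHLH proteins bind, and TGGGAA, read as TTCCCA on the other strand, the core of the site of the Notch effector Rbpj. The windows are chr10:63099535-63099834 for Atoh7 and chr4:154960673-154960972 for Hes5, both on the plus strand.
Atoh7: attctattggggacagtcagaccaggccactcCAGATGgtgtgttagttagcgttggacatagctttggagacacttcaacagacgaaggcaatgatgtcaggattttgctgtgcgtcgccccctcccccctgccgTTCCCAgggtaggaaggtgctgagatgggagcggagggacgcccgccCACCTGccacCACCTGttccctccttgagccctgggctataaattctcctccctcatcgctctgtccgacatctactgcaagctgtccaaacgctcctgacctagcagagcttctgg
Hes5: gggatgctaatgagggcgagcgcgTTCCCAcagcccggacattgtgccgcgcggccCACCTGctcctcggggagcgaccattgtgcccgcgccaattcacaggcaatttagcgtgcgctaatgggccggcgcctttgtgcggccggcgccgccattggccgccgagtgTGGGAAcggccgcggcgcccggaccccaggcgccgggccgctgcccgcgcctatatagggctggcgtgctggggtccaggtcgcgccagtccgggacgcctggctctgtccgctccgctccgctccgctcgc
The Atoh7 window holds 3 E-boxes, at −218, −67 and −57 from the RefSeq start, and 1 TTCCCA at −114. The span given for the Atoh7 gene below begins before that start, at 63099651. Of these sites only the E-box at −218 lies before that span. The Hes5 window holds 1 E-box, at −194, and TGGGAA 2 times, at −226 (as TTCCCA) and −82. Of 32851 promoter windows 72.3% hold at least 1 E-box and 17.6% at least 3, and 25.6% hold TGGGAA at least once and 3.79% at least 2 times. Both windows thus hold both motifs. A match of letters describes the window and does not show binding.

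Atoh7 (chr10:63099651-63101279, plus strand) was at 1249.6 and 1156 CPM at 0 nM, 1839.6 and 1778 CPM at 5 nM, 1256 and 1143 CPM at 50 nM, with 1681 and 1616 CPM at 500 nM. The explants at 5 and 500 nM were all above those at 0 and 50 nM, which overlapped. Atoh7 rose by 0.58 at 5 nM (SE 0.0924, edgeR adjusted p = 0.000464) and by 0.44 at 500 nM (SE 0.0913, adjusted p = 0.0259), with −0.02 at 50 nM (adjusted p = 0.994) and no called trend (0.07, adjusted p = 0.996). The 3 explants with nearly all cells Xist-positive were among these 4 high ones, and explant 2 at 5 nM, also high, was mixed. The call at 5 nM was lost without explant 2 at 0 nM (adjusted p = 0.17), with DESeq2 (adjusted p = 0.055) and in Xist-positive cells alone (0.40, adjusted p = 0.54). The call at 500 nM was lost without any 1 of its 4 explants (adjusted p = 0.14 to 1), in Xist-positive cells alone (0.36, adjusted p = 0.65), with the Xist share as a covariate (0.40, adjusted p = 0.96), with the 2 doses fitted alone (0.44, adjusted p = 0.062) and with DESeq2 (0.45, adjusted p = 1).

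Hes5 (chr4:154960923-154962371, plus strand), a target of Notch, was at 1889 and 1714 CPM at 0 nM, 1245 and 923 CPM at 5 nM, 1357 and 1598 CPM at 50 nM, with 1145 and 1486 CPM at 500 nM. All 6 treated explants were below both at 0 nM. Hes5 fell by 0.79 at 5 nM (SE 0.116, edgeR adjusted p = 0.000195), while −0.27 at 50 nM (SE 0.112, adjusted p = 0.684) and −0.46 at 500 nM (SE 0.110, adjusted p = 0.114) did not pass. The call at 5 nM was lost without explant 2 at 5 nM (−0.54, adjusted p = 0.17), with DESeq2 (−0.75, adjusted p = 0.055) and in Xist-positive cells alone (−0.65, adjusted p = 0.54).

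The other marker genes did not pass at any dose. At 500 against 0 nM the log2 difference was −0.27 for Neurog2 (SE 0.191), 0.12 for Olig2 (SE 0.234), −0.20 for Hes6 (SE 0.0932) and −0.26 for Dll3 (SE 0.181), with edgeR adjusted p-values of 0.902 to 0.985. The sign of Olig2 turned without explant 1 at 0 nM or explant 1 at 500 nM. Without single explants Neurog2 ran from −0.40 to −0.16, Hes6 from −0.31 to −0.11 and Dll3 from −0.41 to −0.11. Sstr2, the receptor of the agonist, was at 129 and 141 CPM at 0 nM, 93.6 and 109 CPM at 5 nM, 173 and 60.9 CPM at 50 nM, with 81.1 and 117 CPM at 500 nM. Both explants at 500 nM were below both at 0 nM, but the spread at 50 nM covered all other explants. The difference at 500 nM (−0.42, SE 0.264) had an edgeR adjusted p of 0.964 and ran from −0.73 to −0.20 without single explants.

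Of 8 proneural bHLH factors tested, 3 had an unadjusted p under 0.05 and a higher level at 5 nM (Atoh7, Neurod1 at 0.28 and Neurod4 at 0.39) and 1 a lower one (Bhlhe22, −0.80). At 50 nM it was 2 and 1, and at 500 nM 1 and 1, with medians of 0.17, −0.19 and −0.06 beside −0.005, 0.0062 and −0.0027 over all genes. Bhlhe22 at 5 nM ran from −0.98 to −0.46 without single explants. Of 12 Notch pathway genes tested, none had such a p with a higher level at any dose. With a lower level there were 1 at 5 nM (Hes5), 3 at 50 nM (the ligands Dll1 at −0.73 and Dll4 at −1.08, and Hes5) and 2 at 500 nM (Hes5 and Hes6). Dll1 was at 152 and 158 CPM at 0 nM and at 86.6 and 96.1 CPM at 50 nM, without overlap (edgeR adjusted p = 0.575), and at 120.3 and 168 CPM at 500 nM, where the doses overlapped. Summed over the Notch list, of whose 13338 UMIs Hes6 gave 5150 and Hes5 4343, the level was 4947 and 4963 CPM at 0 nM and 3811 to 4513 CPM in the 6 treated explants.

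At 5 nM 2 glycolytic enzymes rose. Ldha, lactate dehydrogenase A, was at 196 and 179 CPM at 0 nM against 413 and 315 CPM at 5 nM (0.88, SE 0.189, edgeR adjusted p = 0.047), and Aldoa, aldolase A, at 91.1 and 99.8 CPM and 215 and 181 CPM (1.02, SE 0.218, adjusted p = 0.047). At 50 nM the levels were 399 and 267 CPM for Ldha and 183 and 152 CPM for Aldoa, and at 500 nM 311 and 241 CPM and 136 and 111 CPM. For both genes all 6 treated explants were above both at 0 nM. Both are much higher in photoreceptors, at 1859 to 2274 CPM for Ldha and 429 to 566 CPM for Aldoa, and the part of photoreceptor transcripts in the neurogenic values was not tested. Each call was lost without any 1 of the 4 explants at 0 and 5 nM (adjusted p = 0.056 to 0.53). In Xist-positive cells alone the differences were 0.70 for Ldha and 0.81 for Aldoa (edgeR adjusted p = 0.76 and 0.63), and with the Xist share as a covariate 0.72 and 0.92 (adjusted p = 0.79 and 0.60). With limma on SCT counts the adjusted p was 0.074 and 0.067. Of 15 glycolysis and hypoxia genes tested, 3, 4 and 2 had an unadjusted p under 0.05 and a higher level at 5, 50 and 500 nM and none a lower one, with medians of 0.09, 0.16 and 0.11. With DESeq2 the counts were 2, 2 and 0. With the Xist share as a covariate none had such a p at 500 nM, 8 were lower and the median was −0.05. In Xist-positive cells alone 1 was higher with such a p at 50 nM (median 0.05). The median at 500 nM was 0.01 without explant 1 and 0.22 without explant 2 at that dose.

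The remaining calls were single genes. Malat1, an abundant nuclear RNA, was at 25204 and 23962 CPM at 0 nM against 28613 and 29815 CPM at 5 nM (0.25, SE 0.0551, edgeR adjusted p = 0.047), a call lost without any 1 of these 4 explants (adjusted p = 0.19 to 0.72), in Xist-positive cells alone (adjusted p = 0.54) and with the Xist share as a covariate (0.29, adjusted p = 0.60). Ier5l, of the immediate early response family (chr2:30471537-30474219, minus strand), was at 91.1 and 86.0 CPM at 0 nM, 99.1 and 70.2 CPM at 5 nM, 14.4 and 28.1 CPM at 50 nM, with 34.0 and 57.6 CPM at 500 nM. It fell by 1.90 at 50 nM (SE 0.370, edgeR adjusted p = 0.0219), with the 50 nM explants below all others, on 3 and 12 UMIs against 46 and 25, and did not pass without any 1 of these 4 explants (adjusted p = 0.06 to 0.6), in Xist-positive cells alone (−1.94, adjusted p = 0.70) or with limma on SCT counts (adjusted p = 0.077).

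Among genes with a mean of at least 100 CPM whose 2 doses did not overlap, which is no rare property (17.5% of all genes higher and 18.6% lower at 5 nM), the largest differences mostly did not pass the adjusted threshold. At 5 nM the highest were Aldoa, Ldha, the synaptic vesicle protein Syt1 (0.86), the fatty acid binding protein Fabp7 (0.85) and the photoreceptor protein Unc119 (0.82), and the lowest Atad2 (−0.92), the centromeric histone Cenpa (−0.81), Psmd2 (−0.80), Hes5 and the replication fork protein Tipin (−0.77). At 50 nM the photoreceptor factor Crx (0.83), Aldoa, Manbal, Unc119 (each 0.79) and Ldha stood highest and Cacna1a (−0.83), the spindle protein Tpx2 (−0.80), Dll1, the replicative helicase subunit Mcm6 and Apoe (each −0.73) lowest. At 500 nM these were Xist, Thap12 (0.70), Manbal (0.66), Rere (0.55) and Baz2b (0.53), and Hist1h1b, Eif2s1, Atad2 (−0.78), Cwc22 (−0.77) and Hist1h1c (−0.71). Single explants moved some of these, with Fabp7 at 0.34 and Cenpa at −1.48 without explant 2 at 5 nM and Rere at 0.21 without explant 1 at 500 nM. Over the fits without single explants Syt1 ran from 0.59 to 1.40 and Unc119 from 0.60 to 1.25 at 5 nM. Crx ran from 0.46 to 1.74, Tpx2 from −1.05 to −0.43 and Apoe from −1.30 to −0.50 at 50 nM, and Baz2b from 0.33 to 0.69 at 500 nM. Of all these genes, Aldoa, Ldha and Hes5 at 5 nM and Xist, Hist1h1b and Eif2s1 at 500 nM were called.

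Most S phase genes had a lower level at 5 nM than at 0 nM, but none was called and the group was not tested. Of 37 genes with enough counts, 36 had a lower level at 5 nM, 17 of them with an unadjusted p under 0.05. The median log2 difference was −0.48, or −0.36 without explant 1 and −0.98 without explant 2 at 5 nM. Pola1, the catalytic subunit of DNA polymerase alpha (−1.40), Uhrf1, which recruits a DNA methyltransferase at replication forks (−0.83), and the helicase subunits Mcm2 (−0.88) and Mcm6 (−0.73) were among the 17. Without single explants Mcm2 ran from −1.44 to −0.74 and Mcm6 from −1.39 to −0.56. At 50 nM 31 of 37 were lower, 6 with such a p (median −0.29), and at 500 nM 33, 7 with such a p (median −0.31). The summed level was 4143 and 4106 CPM at 0 nM, 2269 and 3225 CPM at 5 nM, 3816 and 3175 CPM at 50 nM, with 3862 and 2896 CPM at 500 nM. All 6 treated explants were below both at 0 nM, explant 1 at 5 nM most of all. The summed level of photoreceptor precursor markers was highest in that explant, at 1784.5 CPM against 1157 and 916 CPM at 0 nM.

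The number of S phase genes with an unadjusted p under 0.05 and a lower level moved with the tool and with single explants. With DESeq2 it was 5, 1 and 0 at 5, 50 and 500 nM, with medians of −0.64, −0.30 and −0.30. At 5 nM there were 9 without explant 1 at 5 nM and 16 without explant 2. At 50 nM there were 3 without explant 2, where 21 of 37 genes were lower and the median was −0.05, and 8 without explant 1, and at 500 nM 1 without explant 2 (median −0.06) and 15 without explant 1. In Xist-positive cells alone there were 12 of 36 at 5 nM and 14 of 36 at 500 nM. With the Xist share as a covariate there were 7 at 5 nM, while at 500 nM the direction turned, with none lower, 1 higher and a median of 0.28. That adjustment at 500 nM is set mostly by the difference between explants 1 and 2 at 5 nM.

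Of 38 genes of G2 and mitosis tested, 9 had an unadjusted p under 0.05 and a lower level at 5 nM, 6 at 50 nM and 2 at 500 nM, none a higher one, with medians of −0.43, −0.27 and −0.20. With DESeq2 none had such a p at any dose, with medians of −0.46, −0.20 and −0.20. The kinase Plk1 (−1.04), cyclin B1 (Ccnb1, −1.10), Cenpa (−0.81) and Top2a (−0.49) were among those at 5 nM. Without explant 2 at 5 nM these were −2.49 for Plk1, −1.48 for Cenpa and −0.86 for Top2a, and Ccnb1 was −0.68 without explant 1 at 0 nM. Their summed level was 7561 and 7366 CPM at 0 nM, 4224 and 6432 CPM at 5 nM, 7848 and 5559.8 CPM at 50 nM, with 5645 and 7681 CPM at 500 nM, so that 50 and 500 nM overlapped with 0 nM and 5 nM did not. Without explant 1 at 5 nM the count at 5 nM was 2, without explant 2 it was 21, and with the Xist covariate 1. At 50 nM it was 0 lower and 3 higher without explant 2 and 14 lower without explant 1. At 500 nM there were 0 lower and 1 higher without explant 1 and 11 lower without explant 2, and the covariate gave 9 higher genes and a median of 0.41.

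**Figure D4:**
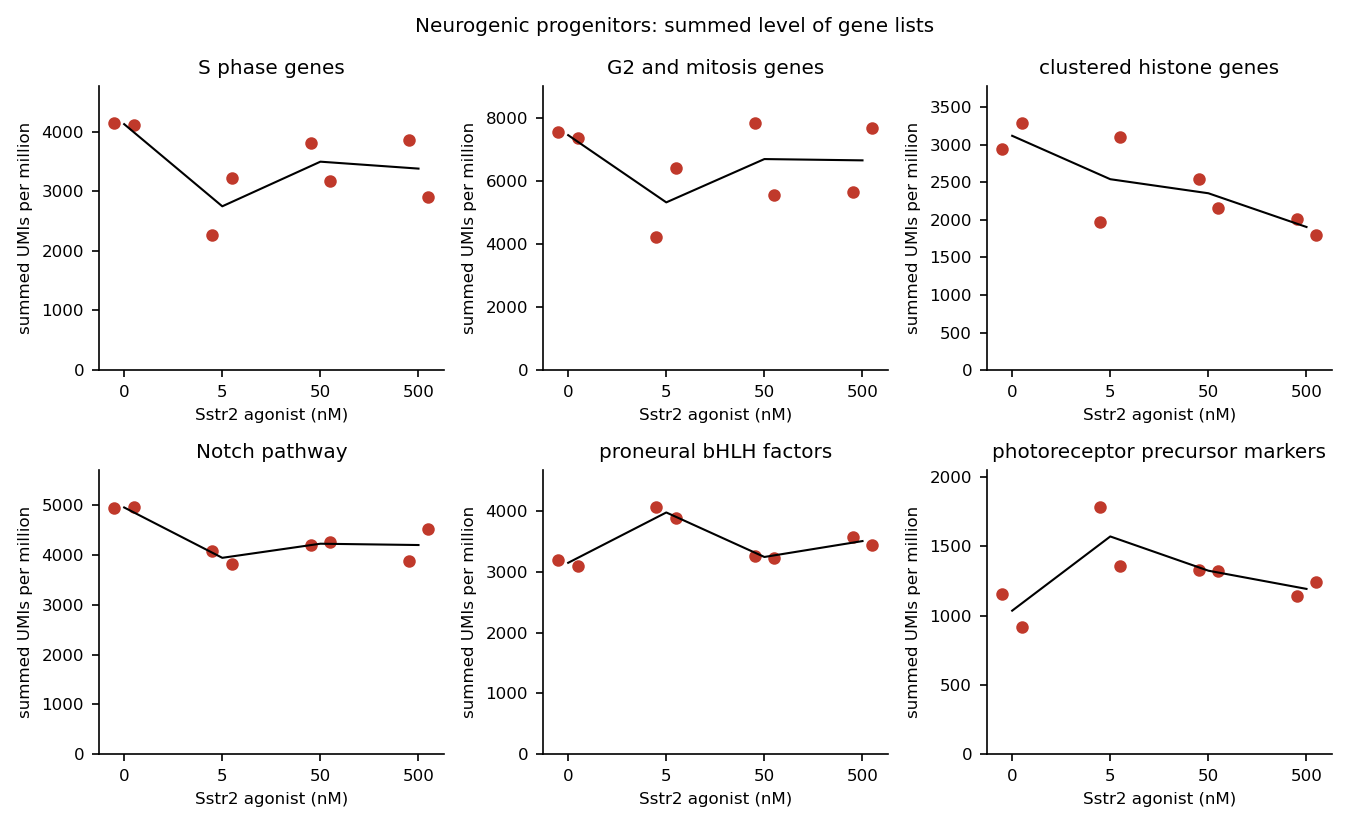
Summed level in CPM (vertical axes from 0) of 6 gene lists in neurogenic progenitors against the dose of agonist in nM on an axis of equal steps. Points are explants and lines join the means of 2 explants. S phase genes lie between 2269 and 3862 CPM in treated explants and at 4143 and 4106 CPM at 0 nM, while the explants of a dose often lie as far apart as the doses.

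Of 16 photoreceptor precursor genes 6 had enough counts for the test. Of these, 4 had an unadjusted p under 0.05 and a higher level at 5 nM (Otx2 0.37, Crx 0.79, Gngt2 1.17 and Unc119 0.82), 3 at 50 nM (Otx2 0.26, Crx 0.83 and Unc119 0.79) and 1 at 500 nM (Unc119 0.49). Without explant 1 at 0 nM Crx was 1.71 and 1.74 at 5 and 50 nM and without explant 2 at 0 nM 0.42 and 0.46, and Unc119 at 500 nM was −0.15 with the Xist share as a covariate. In the fit to all explants none had a lower one, none was called, and the medians were 0.74, 0.37 and 0.21. With the covariate 4 of the 6 were lower at 500 nM and the median was −0.11. At 5 nM the median was 1.20 without explant 1 and 0.43 without explant 2 at 0 nM. Otx2 was at 638 and 599 CPM at 0 nM, 854 and 764 CPM at 5 nM, 731 and 749.7 CPM at 50 nM, with 643 and 627 CPM at 500 nM. The 4 explants at 5 and 50 nM were above those at 0 and 500 nM, which overlapped. The summed level of the list was 1157 and 916 CPM at 0 nM, 1784 and 1359.7 CPM at 5 nM, 1328 and 1321 CPM at 50 nM, with 1140.0 and 1247 CPM at 500 nM. Without explant 2 at 0 nM the count at 50 nM was 1 and the median at 500 nM −0.06, and in Xist-positive cells alone the count at 50 nM was 1 (median 0.04). Without explant 1 at 0 nM 4 of the 6 were higher at 500 nM with such a p (median 0.76). With no filter on low counts 8 of all 16 genes were lower at 50 nM (median 0.034) and 4 at 500 nM (median 0.40).

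Of 20 further genes of neurogenic progenitors, 4 had an unadjusted p under 0.05 and a higher level at 5 nM, 3 a higher and 5 a lower one at 50 nM, and none did at 500 nM. Of 17 primary progenitor markers 3, 4 and 1 were lower with such a p at the 3 doses, among them Sox2 at 5 nM (−0.60) and Ccnd1 at 50 nM (−0.53), and none higher. Of 17 cyclins and Cdk inhibitors there were 1 higher and 3 lower at 5 nM and 3 lower at 50 and at 500 nM, Cdkn1a (p21) at each dose (−1.39, −2.24 and −1.80), on a level of 33.7 and 44.7 CPM at 0 nM and at most 18.7 CPM at any other dose. Cdkn1a had 17 and 13 UMIs at 0 nM and 0 to 12 in the treated explants, with 0 in explant 1 at 5 nM and in explant 1 at 50 nM. Without explant 2 at 5 nM its fitted difference there was −6.75 and without explant 2 at 50 nM −6.86, values that rest on 0 UMIs and are no bound, and without the explants at 0 UMIs the size was smaller (−1.66 at 50 nM). With the Xist share as a covariate Cdkn1a was at 1.75 at 500 nM, none of the 17 genes was lower with such a p, and their median was 0.32. Of 17 genes of somatostatin receptors and inhibitory G protein signaling 1 had such a p at a single dose, Rgs16 at 50 nM (−0.37), and of 3 Hedgehog genes none did. For the trend 1 of the 17, Gnai2, had such a p and a rise, of 0.07 to 0.16 without single explants. Of 9 immediate early genes Jun (0.50) and Ier2 (0.31) were higher at 5 nM and Fos lower at 50 nM (−1.24), and of 11 stress response genes Eif2s1 alone had such a p. Without single explants Ier2 ran from 0.22 to 0.48 and Fos from −2.08 to −0.95.

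Markers of other cells were read for the same reason. Of 8 amacrine genes tested, 2, 1 and 2 had an unadjusted p under 0.05 and a higher level at 5, 50 and 500 nM, among them Gad2, the enzyme that makes GABA (0.94 at 5 nM and 1.02 at 500 nM, or 0.33 without explant 2 at 500 nM). Of 6 ganglion cell genes Isl1 did at 5 nM (1.07) and 500 nM (1.22), on levels of 4.81 to 44.3 CPM. Of 2 horizontal cell genes Ndrg1 was higher at 5 nM with such a p (0.74), and of 5 Müller glia genes the intermediate filament gene Vim was lower at 5 nM (−0.47, or −0.06 without explant 2 at 5 nM) and Apoe at 50 nM (−0.73). The 1 vascular gene tested, Kdr, was higher at 50 nM (0.74). Ndrg1, Apoe and Kdr are not particular to horizontal, glial or vascular cells here. Over all explants photoreceptors held 1923 UMIs of Ndrg1 and 2282 of Apoe, and primary progenitors 1681 of Kdr. Single explants left out moved Kdr from 0.37 to 0.90, Ndrg1 from 0.49 to 1.21, Isl1 at 500 nM from 0.77 to 1.52 and Apoe from −1.30 to −0.50. Of 13 mitochondrially encoded genes 1, 0 and 2 were higher with such a p at the 3 doses, and of 4 sex genes Xist was higher at 5 and 500 nM and 2 were lower at 500 nM. No microglial, pigment epithelial or red blood cell gene had enough counts for the test, and these lists summed to 3, 16 and 0 UMIs over all 682 cells, but 3 of the 8 pigment epithelial and 5 of the 6 red blood cell genes are not among the genes of the matrix. Of the lens list 1 gene was tested, and the list summed to 34.4 to 72.6 CPM per explant.

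The response at 500 nM was set against that of other explant types, in fits with explant as a block over 7690 genes for primary progenitors and 7644 for photoreceptors. It differed from primary progenitors in 10 genes (0.13%) and from photoreceptors in 3 (0.0392%), all with a lower value in neurogenic progenitors. Cdkn1c was at 26.0 and 19.7 CPM in primary progenitors at 0 nM and at 14.0 and 36.8 CPM at 500 nM, and in photoreceptors at 85.4 and 111 CPM and 79.3 and 103 CPM. The doses overlapped in both types. In amacrine cells Cdkn1c was at 131 and 170.3 CPM at 0 nM and lower, at 80.9 and 105 CPM, at 500 nM, and the difference from that type was not tested. The difference of the log2 changes was −3.57 from primary progenitors (SE 0.619, edgeR adjusted p = 0.000803) and −3.42 from photoreceptors (SE 0.568, adjusted p = 0.000222).

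Hist1h1b was at 545 and 333 CPM in primary progenitors at 0 nM and at 494 and 512 CPM at 500 nM, again with overlap, and its change differed by −1.44 (SE 0.183, edgeR adjusted p = 2.38e-06) from primary progenitors and by −1.55 (SE 0.266, adjusted p = 0.00025) from photoreceptors. In amacrine cells it was at 89.98 and 84.3 CPM at 0 nM and at 56.5 and 54.7 CPM at 500 nM, also without overlap, and the difference from them was not tested. Without explant 2 at 500 nM 2 genes differed from primary progenitors, of which Hist1h1b was 1 (adjusted p = 0.0048) and Cdkn1c was not (−2.88, adjusted p = 0.78), and no gene differed from photoreceptors. Without explant 1 at 0 nM the difference of Hist1h1b from photoreceptors was −1.22 (adjusted p = 0.26).

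Mki67 parted the progenitor types. Primary progenitors of explant 2 at 500 nM stood apart in the lens list, at 3487 CPM against 39.9 to 57.3 CPM in the other explants. In neurogenic progenitors Mki67 was at 182 and 196 CPM at 0 nM against 96.7 and 159 CPM at 500 nM (−0.54, SE 0.221, edgeR adjusted p = 0.902). Without single explants this change ran from −0.97 to −0.25. In primary progenitors Mki67 was at 146 and 166 CPM and 229.8 and 344 CPM, and rose by 0.84 (SE 0.158, edgeR adjusted p = 0.00236). The difference was −1.40 (SE 0.238, adjusted p = 0.000684) and was lost without explant 1 at 0 nM (adjusted p = 0.0774) or explant 2 at 500 nM (adjusted p = 0.0633). Hes5 and Atoh7, in contrast, had a like sign in both: in primary progenitors Hes5 fell by 0.59 at 500 nM (SE 0.117, edgeR adjusted p = 0.00496) and Atoh7 rose by 2.22 (SE 0.449, adjusted p = 0.00684), from 20.4 and 8.94 CPM to 23.7 and 117 CPM, where explant 2 stood apart.

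**Figure D5:**
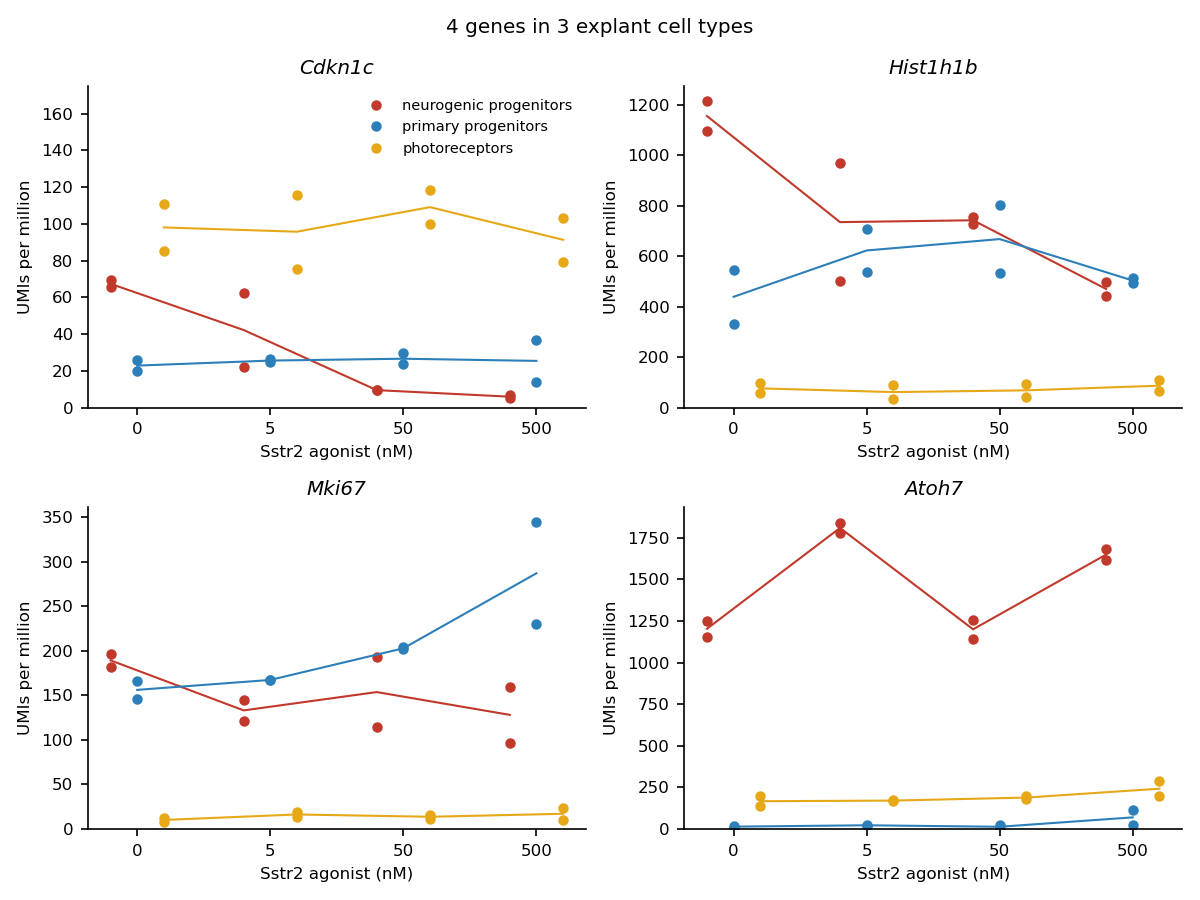
Level in CPM (vertical axes from 0) of 4 genes in neurogenic progenitors (red), primary progenitors (blue) and photoreceptors (yellow) against the dose of agonist in nM on an axis of equal steps. Points are explants and lines join the means of 2 explants. At 500 nM Cdkn1c is at 5.23 and 6.64 CPM in neurogenic progenitors and at 79.3 and 103 CPM in photoreceptors, and Mki67 is higher in primary than in neurogenic progenitors.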

How the data were processed

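The cells were sequenced in 1 pooled MULTI-seq library, in which lipid-bound barcodes mark each cell's sample, on the 10x Chromium 3′ system. The authors processed the reads (Cell Ranger 3.1.0, Seurat 3 and mm10 per the submitters' processing notes) and assigned cells with deMULTIplex. The authors deposited UMI counts without normalization and values that are the natural log of 1 plus an SCTransform-corrected count. Dose and cell type came from their table of cells. Deposited explant cells hold 1001 to 2499 genes, and filters are otherwise not given in the sources used here.

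Counts were summed per explant and tested with edgeR 4.0.16 in R 4.3.3 (quasi-likelihood, TMM, filterByExpr, Benjamini-Hochberg, threshold 0.05, two-sided). No covariate was used, and comparisons between types had the explant as a block. Alternatives were DESeq2 1.42.0, its size factors, no filter, limma 3.58.1 on log2(CPM + 1) of SCT counts, removal of Scrublet doublets (scanpy 1.11.5, 6 neurogenic cells, 0.880%) or mitochondrial genes, sex terms, the 2 doses alone, and each explant left out. Fits within mixed and within nearly all female explants were chosen after seeing the data. Scripts were tested on simulated data. Python was 3.11.15 with numpy 2.4.6, scipy 1.17.1, pandas 2.3.3 and matplotlib 3.10.9. Intervals are Clopper-Pearson at 95% and cover counting error only.

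The cells and the 26 gene lists were chosen with earlier results of these data known. Genes named are the markers and Sstr2, every called gene, the 5 largest non-overlapping rises and falls of genes with at least 100 CPM per contrast, the 15 leading identity genes, and list members with an unadjusted p under 0.05. Others were named after their values were seen. The P0 and P14 libraries were not used here.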

Additional observations from a re-analysis of the deposited data

Results flagged for a closer look

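The 13 values below are differences between the log2 change from 0 to 500 nM in neurogenic progenitors and that in another explant cell type, tested by edgeR's quasi-likelihood interaction term with explant as a block, and each passed the adjusted threshold. Against primary progenitors they were −1.44 for Hist1h1b, −3.57 for Cdkn1c, −1.40 for Mki67 and −1.35 for Atad2, a chromatin ATPase of dividing cells (edgeR adjusted p = 0.0457). Against photoreceptors they were −3.42 for Cdkn1c, −1.55 for Hist1h1b and −1.22 for Ccnd1 (adjusted p = 0.0239). Ccnd1 was at 296 CPM in photoreceptors of explant 2 at 500 nM and at 81.5 to 158 CPM in the other 7 explants, and without explant 2 the difference was −0.12. The value of Atad2 missed the threshold without explant 2 at 0 nM, explant 1 at 50 nM or either explant at 500 nM (edgeR adjusted p = 0.0628 to 0.787).

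The other 6 genes encode crystallins of the lens. Their differences from primary progenitors were −6.71 for Crygd, −6.46 for Crygc, −5.55 for Cryge, −5.32 for Crybb1, −4.85 for Cryaa and −3.91 for Cryba1. Primary progenitors of explant 2 at 500 nM held 1739 CPM of Cryaa, against 15.1 to 21.9 CPM in the other 7 explants, and neurogenic progenitors 13.8 to 28.1 CPM in all 8. Over all explants Cryaa had a UMI in 144 of 1691 primary progenitors (8.52%, unthinned), against 9.38% of neurogenic progenitors. The 2600 Cryaa UMIs of that explant's primary progenitors thus lay in at most 144 cells and are not a level shared by the type. The same explant held 2251 CPM of Cryge, 1404 of Crygd, 1098 of Cryba1, 928 of Crybb1 and 385 of Crygc in primary progenitors. Explant 2 at 500 nM is also the explant without which no gene differed from photoreceptors. In that explant the lens list summed to 63.6 CPM in photoreceptors and 59.8 CPM in neurogenic progenitors, against 3487 CPM in primary progenitors. In photoreceptors this was the lowest of the 8 explants, which reached 98.6 CPM. The cause of the differences from photoreceptors was not tested.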

How the results depend on the processing

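Each count rests on 2 explants a dose, and both explants at 500 nM were nearly all female. Of 3063 values of single genes under alternatives, 2879 kept their sign and side of the threshold, 137 lost it, 25 gained it and 22 turned. Against 5 calls at 5 nM, DESeq2 and Xist-positive cells alone gave 0 each, limma 3, the Xist covariate 3 (2 of them among the 5), and leaving out single explants 1 to 8 (the 8, without explant 2 at 5 nM, held 1 of the 5). Against 2 at 50 nM, DESeq2, limma, Xist-positive cells and the 2 doses alone gave 0 each, no filter 4, and single explants left out 0 to 3. Against 6 at 500 nM, DESeq2 and the covariate gave 0 each, Xist-positive cells 1, and single explants left out 3 to 6. Counts of 0 stood beside 296 (5 nM) and 314 (50 nM) genes at an unadjusted p under 0.05 in Xist-positive cells, 403 with limma and 334 with the 2 doses alone at 50 nM, and 279 with the covariate at 500 nM. Against 4 trends, DESeq2 gave 2, the covariate 2 (1 of them among the 4), limma 1, the mixed explants 1 and the nearly all female explants 0 (329 at an unadjusted p under 0.05), and single explants left out 2 to 4. The 10 differences from primary progenitors became 16 without a filter and 3 without the explant block, and 2 to 17 without single explants, and the 3 from photoreceptors became 1 and 0 to 3. Markers highest in pooled neurogenic progenitors went from 4 to 5 on SCT values.

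The correlation of the share of all cells with dose turned to r = 0.026 and rho = 0.10 without doublets, and ran from −0.55 to 0.14 (rho −0.48 to 0.24) without single explants. For the share of progenitors r was −0.70 in Xist-positive cells and −0.93 to −0.71 without single explants (rho −0.90 to −0.61).

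Single genes that turned did so as follows, none past the threshold. Olig2 at 500 nM was −0.057 without explant 1 at 0 nM and −0.038 without explant 1 at 500 nM, in a range up to 0.29. With the Xist covariate at 500 nM, Unc119 was −0.15, Eif2s3y 1.96, Rere −0.16, Baz2b −0.012, Cdkn1a 1.75, Tyms 0.11, Rrm2 0.87, Birc5 0.19 and Ddx3y 0.073, and the trend of Ddx3y 0.11 (0.31 in mixed explants). Within the nearly all female explants the trend was 1.51 for Eif2s3y, 2.56 for Cdkn1a, 0.18 for Lig1, 0.23 for Tyms, 0.57 for Rrm2, 0.052 for Mki67 and 0.11 for Hist1h1a. Without explant 2 at 500 nM the difference from primary progenitors was 0.65 for Cryba1 and 0.96 for Cryaa, in ranges that began at −4.56 and −5.78. The cause of these changes was not tested. Values with the Xist covariate at 500 nM are set mostly by the difference between the 2 explants at 5 nM. No paired analysis was possible because the sample barcodes of the explants share no number across doses.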
